A study of Mus musculus with 8 samples.

Results

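The antioxidant and NRF2 target genes described here are 10 genes: Nqo1, Hmox1, Gclc, Gclm, Txnrd1, Srxn1, Cat, Sod1, Sod2 and Gpx1. Probes were chosen by name, with no use of their values, wherever the array's RefSeq transcript belonged to 1 of these symbols. This gave 12 of the 39429 non-control probes, with 2 probes each for Hmox1 and Cat and 1 for each other gene. All 12 were well above background on all 8 arrays, so every member was tested, among 35329 probes and 19056 named genes in all.

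The samples were myocardium, the heart muscle, from untreated male mice. The arrays were labelled NPRA-/- (3 arrays) or NPRA+/+ (5 arrays). NPRA, encoded by Npr1, is the guanylyl cyclase receptor of atrial and B-type natriuretic peptide. The labels name a conditional NprAflox/flox model and the series title calls the deletion cardiac-specific. The sources used here do not give the promoter or Cre that drives the deletion, the ages of the mice, or whether NPRA+/+ mice carried the floxed allele. Each sample's total RNA was hybridised in a single colour to an Agilent mouse array. The series text mentions RNA methylation, but the arrays were read as transcript levels, as the series is typed.

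NRF2, encoded by Nfe2l2, is a transcription factor that KEAP1 holds at a low level in resting cells by directing its ubiquitination. Oxidants and electrophiles release it, and it then binds antioxidant response elements together with a small MAF protein. Its classical targets make glutathione (Gclc, Gclm), recycle oxidised thiols (Txnrd1, Srxn1), reduce quinones (Nqo1) and degrade heme (Hmox1). Superoxide dismutases (Sod1, Sod2) turn superoxide into hydrogen peroxide, which catalase (Cat) and glutathione peroxidase 1 (Gpx1) remove. In heart muscle the dense mitochondria are a main source of superoxide.

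The comparison asked whether transcripts of these genes differ in the heart when the receptor is deleted. None of the 10 genes (0) passed the test at an adjusted p under 0.05 (limma, Benjamini-Hochberg over all probes tested). Over the whole array 123 of 35329 probes (0.348%) passed, and with each gene represented by its brightest probe 61 of 19056 genes (0.32%). At an unadjusted p under 0.05, 1 of 10 genes was higher (Sod1) and 0 lower, against 16.2% and 1.24% of all genes. The fitted log2 changes ran from -0.38 for Cat to 0.53 for Sod1. Catalase, sulfiredoxin and the glutamate-cysteine ligase modifier subunit had the lowest fitted changes, and the superoxide dismutases the highest.

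A shift of the whole array bears on every sign. The median fitted change over all probes was 0.21 on the log2 scale. With the probes split by signal into 5 equal groups, it ran from 0.63 in the dimmest to 0.05 in each of the 2 brightest. These hold all probes of the 10 genes but the dimmer Hmox1 probe, whose group had a shift of 0.22. Of the 10 genes, 8 had a fitted change below 0 (28.1% of all genes, and 41.6% of those in the brightest group). This count was 5 without NPRA-/- replicate 1, NPRA+/+ replicate 2 or NPRA+/+ replicate 5, and 10 in the deposited table. The median over the 10 genes was -0.03, against 0.16 over all genes, a difference of -0.19. This difference lay between -0.34 and -0.05 over the alternatives in processing, and the level behind it, the median of the 10 genes minus that of all genes on an array, had an SD of 0.205 among the 5 NPRA+/+ arrays.

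Levels below are log2 signals relative to the 75th percentile of the array, given for replicates 1 to 3 of NPRA-/- and 1 to 5 of NPRA+/+. Levels of different probes are not comparable. Replicate 1 of each genotype stood apart from the other arrays on the first principal component (47.3% of the variance) and was scanned on a day of its own. Both genotypes were scanned on the same day only on scan day 1, which held replicates 2 and 3 of each. Even there, NPRA-/- replicates 2 and 3 shared a scan time and NPRA+/+ replicates 2 and 3 shared another. No scan time held both genotypes, so genotype cannot be told apart from scan time, on that day or in the series. Arrays that share a scan time are called a slide here, as no slide identifier was read. On each array, 79.5% to 92.6% of probes exceeded background. Npr1 itself was close to background, with a fitted change of 0.03 ± 0.40 (SE; adjusted p = 0.978). As the position of its probe in the deleted gene is unknown here, it does not check the labels. All 8 cardiomyocyte markers were well above background on every array.

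**Figure D1:**
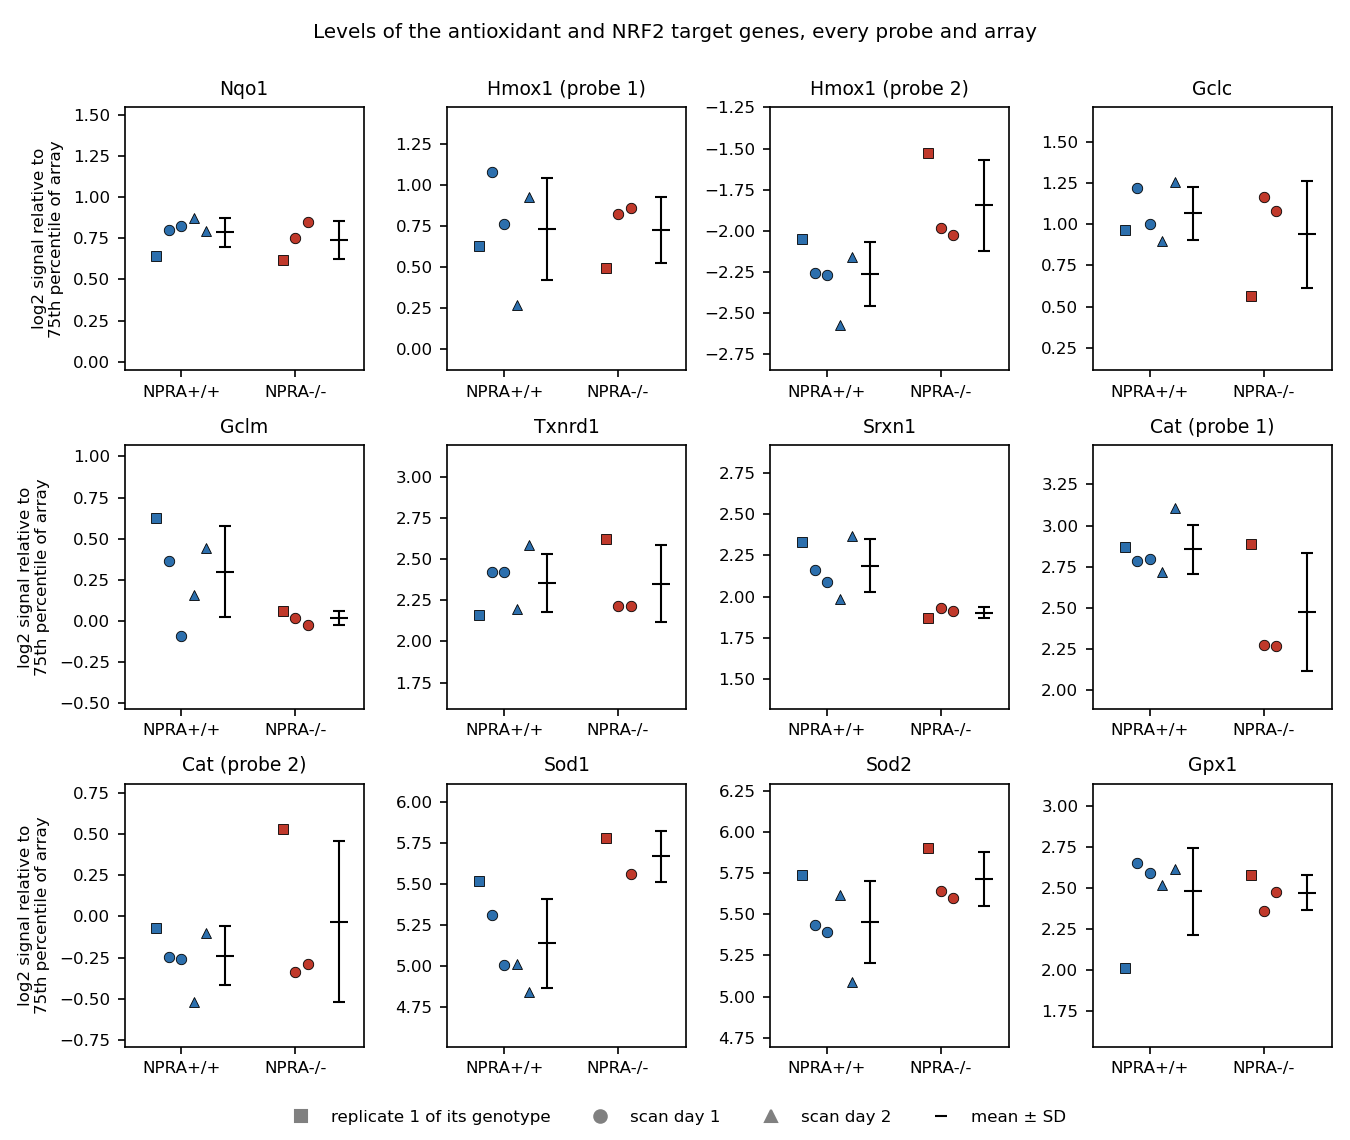
Log2 signal relative to the array's 75th percentile (y axis, 1.6 log2 units in every panel) for each of the 12 probes (probe 1 of a gene is the brighter), by genotype. Points are arrays (squares, replicate 1 of its genotype; circles, scan day 1; triangles, scan day 2) and bars are mean ± SD. Srxn1 separates the genotypes without overlap, as do the dimmer Hmox1 probe and Sod1, for which 1 NPRA-/- array has no value.

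Promoter sequence is shown for Srxn1, Gclm and Cat, the genes with the lowest fitted changes, as it is through such sequence that NRF2 acts. The sequences are RefSeq's for GRCm38.p6, upstream of the annotated start (for Gclm without the 70 bases next to it) and 5′ to 3′ on the gene's strand. Capitals mark matches on either strand to the core of the antioxidant response element, TGACNNNGC, or to TGAGTCA, the core bound by AP-1 and by NF-E2-type factors. The windows are chr2:152105274-152105523 (+ strand) for Srxn1, chr3:122245307-122245486 (+ strand) for Gclm and chr2:103485154-103485403 (- strand) for Cat.
Srxn1: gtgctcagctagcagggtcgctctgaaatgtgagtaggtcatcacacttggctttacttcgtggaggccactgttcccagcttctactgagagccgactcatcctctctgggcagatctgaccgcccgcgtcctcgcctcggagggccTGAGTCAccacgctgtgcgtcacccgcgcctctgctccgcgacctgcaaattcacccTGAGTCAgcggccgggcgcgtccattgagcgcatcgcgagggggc
Gclm: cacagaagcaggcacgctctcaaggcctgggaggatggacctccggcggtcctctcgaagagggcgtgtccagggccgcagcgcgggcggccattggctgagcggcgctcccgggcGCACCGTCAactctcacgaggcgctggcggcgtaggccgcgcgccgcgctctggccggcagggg
Cat: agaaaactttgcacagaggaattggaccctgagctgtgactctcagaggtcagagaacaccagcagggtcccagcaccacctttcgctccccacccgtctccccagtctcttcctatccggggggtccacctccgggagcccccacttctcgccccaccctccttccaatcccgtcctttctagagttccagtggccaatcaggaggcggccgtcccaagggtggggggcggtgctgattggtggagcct

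Windows of 250 bases were searched for 8 of the 10 genes (10 windows). The antioxidant response element core was found in 3 of these windows, those of Gclm, Txnrd1 and Sod1, against 10.2% of all 32851 promoter windows. TGAGTCA was found in 1 of the 10 windows, that of Srxn1, and 4.46% of all windows. The Srxn1 window held it 2 times, beginning 102 and 45 bases before the start, while the Gclm match began 134 bases before it. The letters TGACTCA followed by GC would count for both motifs, and no window of these genes had such a match. The Gclm sequence is printed without the last 70 of the 250 bases searched, since another annotated transcript begins there. A match is a run of letters and says nothing of binding in these hearts.

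Srxn1 encodes sulfiredoxin, which repairs overoxidised peroxiredoxins and is a classical NRF2 target. Its level was 1.87, 1.93 and 1.91 on the NPRA-/- arrays and 2.33, 2.16, 2.09, 1.98 and 2.37 on the NPRA+/+ arrays. Every NPRA-/- value was lower than every NPRA+/+ value, with only a small gap to NPRA+/+ replicate 4. Srxn1 was the only 1 of the 10 genes to separate downward (1.16% of all genes did). NPRA-/- arrays averaged 1.90 ± 0.03 (SD, n = 3) and NPRA+/+ arrays 2.19 ± 0.16 (SD, n = 5), giving a fitted log2 change of -0.28 ± 0.13 (SE; limma, adjusted p = 0.285). Its 95% interval ran from -0.59 to 0.02. Within scan day 1 the change was -0.21 ± 0.09 (limma, adjusted p = 0.184).

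Gclm and Gclc encode the modifier and catalytic subunits of glutamate-cysteine ligase, the rate-limiting enzyme of glutathione synthesis. Gclm was at 0.06, 0.02 and -0.02 on the NPRA-/- arrays and at 0.63, 0.36, -0.09, 0.16 and 0.44 on the NPRA+/+ arrays. The NPRA-/- arrays were close together, and only NPRA+/+ replicate 3 reached below them. The fitted change of Gclm was -0.28 ± 0.18 (SE; limma, adjusted p = 0.424), with a 95% interval from -0.68 to 0.12. Within scan day 1 it was -0.14 ± 0.18.

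Gclc was at 0.56, 1.17 and 1.08 against 0.97, 1.22, 1.00, 0.90 and 1.26. Only NPRA-/- replicate 1 was outside the range of the NPRA+/+ arrays. Its fitted change was -0.13 ± 0.18 (SE; limma, adjusted p = 0.739). It turned to 0.06 without NPRA-/- replicate 1 and to 0.02 within scan day 1. The sign for the catalytic subunit therefore depended on replicate 1, while that for the modifier subunit did not change in any alternative.

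Cat encodes catalase, the peroxisomal enzyme that splits hydrogen peroxide into water and oxygen, and was measured by 2 probes. The brighter probe was at 2.89, 2.27 and 2.27 on the NPRA-/- arrays and at 2.87, 2.79, 2.80, 2.72 and 3.10 on the NPRA+/+ arrays. NPRA-/- replicates 2 and 3 lay below every NPRA+/+ array, while NPRA-/- replicate 1 lay among them. NPRA-/- arrays averaged 2.48 ± 0.36 (SD, n = 3) and NPRA+/+ arrays 2.86 ± 0.15 (SD, n = 5), giving a fitted change of -0.38 ± 0.18 (SE; limma, adjusted p = 0.296) with a 95% interval from -0.80 to 0.04. On a linear scale this is a signal ratio of 0.769.

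Within scan day 1 the brighter Cat probe passed, at -0.52 ± 0.08 (limma, adjusted p = 0.0329). There 485 of 35319 probes (1.37%) passed lower and 15.6% higher, with 2 arrays per genotype. It also passed without replicate 1 of both genotypes, at -0.58 ± 0.14 (adjusted p = 0.0470), where 0.51% of all probes passed lower and 11.2% higher. With array weights it was at -0.54 ± 0.10 (adjusted p = 0.00715), where 2.12% passed lower and 24.9% higher. With NPRA-/- replicate 1 alone left out it did not pass, at an adjusted p of 0.112. The fitted change was negative in all 24 alternatives with this probe, from -0.62 to -0.28, and in 3 of them it passed. In the remaining alternative, the mean of both Cat probes, the change was only -0.09 ± 0.20 (limma, adjusted p = 0.850).

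The dimmer Cat probe did not follow. It was at 0.53, -0.34 and -0.29 on the NPRA-/- arrays and at -0.07, -0.25, -0.26, -0.52 and -0.10 on the NPRA+/+ arrays. NPRA-/- replicate 1 was far above all other arrays, and the rest overlapped. The fitted change was 0.21 ± 0.22 (SE; limma, adjusted p = 0.660), and -0.06 ± 0.09 within scan day 1. Over all arrays that change was the same as the shift of all probes, but 0.16 relative to the shift of probes of like signal.

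The difference between the Cat probes does not depend on how arrays are scaled to a common percentile. Brighter minus dimmer, it was 2.36, 2.61 and 2.56 on the NPRA-/- arrays and 2.94, 3.04, 3.06, 3.24 and 3.21 on the NPRA+/+ arrays. Here NPRA-/- replicate 1 no longer stood with the NPRA+/+ arrays, and the genotypes did not overlap. This averaged 2.51 ± 0.13 (SD, n = 3) on NPRA-/- and 3.09 ± 0.13 (SD, n = 5) on NPRA+/+ arrays, which differ by -0.59 (two-sided exact permutation test, p = 0.0357, the smallest that 56 splits of the arrays can give, and 0.0714 adjusted over the 2 genes with a pair of probes). It was -0.46 within scan day 1 and -0.59 after quantile normalization. Among 4007 genes with 2 tested probes, 274 (6.84%) separated the genotypes in this direction and 71 (1.77%) in the other, and the median difference was -0.11. This comparison was chosen after the values were seen. The difference did not pass after that adjustment, and the sequences of the probes are not in the sources used here.

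**Figure D2:**
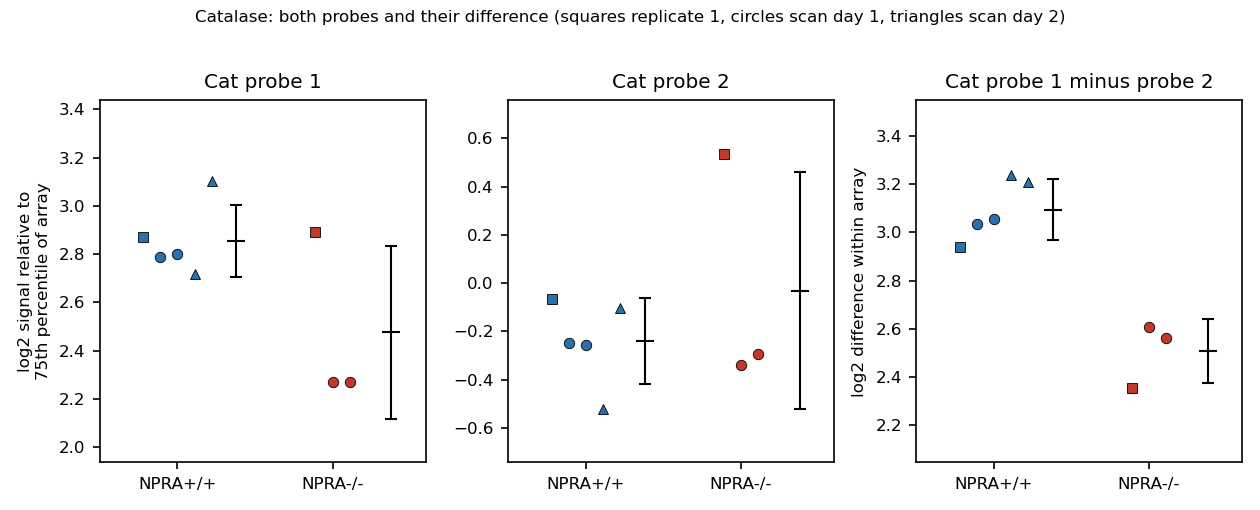
Log2 signals of the brighter and dimmer Cat probe relative to the array's 75th percentile, and their difference within each array (y axes, log2 units), by genotype, with mean ± SD. In the difference, unlike in either probe, the NPRA-/- arrays (2.36 to 2.61) do not overlap the NPRA+/+ arrays (2.94 to 3.24).

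Sod1 encodes the cytosolic copper-zinc superoxide dismutase. It was at 5.78 and 5.56 on NPRA-/- replicates 1 and 3 and at 5.52, 5.31, 5.01, 5.01 and 4.84 on the NPRA+/+ arrays. Both NPRA-/- values lay above all NPRA+/+ values, in the direction in which 13% of all genes separated. NPRA-/- replicate 2 had no value, as the scanner software marked its only Sod1 spot as not uniform, so the fit used 7 arrays. The fitted change was 0.53 ± 0.22 (SE; limma, adjusted p = 0.241), with a 95% interval from 0.02 to 1.04.

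With that spot kept, NPRA-/- replicate 2 was at 4.50, the lowest of all 8 arrays, and the change was 0.14 ± 0.30 (adjusted p = 0.842). In the authors' deposited table, which holds a value for this spot, the fitted change was -0.13 ± 0.25. Scaling moved the value too, to 0.19 ± 0.17 with quantile normalization and 0.27 ± 0.18 with scaling to the median, both without that spot. The deposited table differs in scaling as well as in this spot. Ccs, the copper chaperone that loads SOD1, was at 2.04, 2.00 and 1.84 against 1.70, 1.42, 1.37, 1.82 and 1.50. These did not overlap, with only a small gap to NPRA+/+ replicate 4, in the direction in which 13% of all genes separated. The fitted change of Ccs was 0.40 ± 0.15 (SE; limma, adjusted p = 0.191). Within scan day 1 Ccs passed at 0.53 ± 0.10 (limma, adjusted p = 0.0433), where 15.6% of all probes passed higher. A link between Ccs and Sod1 levels was not tested.

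Sod2 encodes the manganese superoxide dismutase of the mitochondrial matrix. It was at 5.90, 5.64 and 5.60 on the NPRA-/- arrays and at 5.74, 5.43, 5.39, 5.62 and 5.09 on the NPRA+/+ arrays. The genotypes overlapped, with replicate 1 the highest array of each. The fitted change was 0.26 ± 0.17 (SE; limma, adjusted p = 0.454), but -0.04 with quantile normalization. The summed signal of the cardiomyocyte markers was likewise highest on replicate 1 of each genotype, 1810 and 1437 times the 75th percentile, against 348 to 703 on the other 6 arrays. Its part in the levels of Sod1 and Sod2 was not tested.

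Gpx1 encodes the selenium-dependent glutathione peroxidase of cytosol and mitochondria. It was at 2.58, 2.36 and 2.48 against 2.01, 2.66, 2.59, 2.52 and 2.62. NPRA+/+ replicate 1 was far below the other 7 arrays. Over all arrays the fitted change was -0.0080 ± 0.17 (SE; limma, adjusted p = 0.987), and -0.12 without that array. Without replicate 1 of both genotypes it was -0.18 ± 0.10 (adjusted p = 0.281), and within scan day 1 it was -0.21 ± 0.10 (adjusted p = 0.213).

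Txnrd1 encodes the cytosolic thioredoxin reductase. It was at 2.62, 2.22 and 2.22 against 2.16, 2.42, 2.42, 2.20 and 2.59. As for the brighter Cat probe, NPRA-/- replicate 1 was well above replicates 2 and 3. Txnrd1 had a fitted change of -0.0045 ± 0.16 (SE; limma, adjusted p = 0.991), with a 95% interval from -0.37 to 0.37, and -0.20 ± 0.08 within scan day 1 (adjusted p = 0.176).

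Nqo1 encodes the quinone reductase that is widely used as a readout of NRF2. It was at 0.62, 0.76 and 0.85 against 0.64, 0.80, 0.83, 0.87 and 0.79. The genotypes overlapped almost wholly, and replicate 1 was the lowest array of each. Nqo1 had a fitted change of -0.05 ± 0.12 (SE; limma, adjusted p = 0.874). Its 95% interval, from -0.32 to 0.23, was the narrowest of the 12 probes.

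Hmox1 encodes heme oxygenase 1, which NRF2 induces and BACH1 represses, and was measured by 2 probes. The brighter was at 0.49, 0.82 and 0.86 against 0.63, 1.08, 0.76, 0.27 and 0.93. The NPRA-/- arrays lay inside the wide range of the NPRA+/+ arrays, and the fitted change was -0.0073 ± 0.20 (SE; limma, adjusted p = 0.989). The dimmer was at -1.53, -1.98 and -2.02 against -2.05, -2.25, -2.27, -2.57 and -2.16. It did not overlap between genotypes (14.1% of all probes separated in this direction), the gap being small, and its fitted change was 0.42 ± 0.17 (SE; limma, adjusted p = 0.239). Relative to the shift of the probes of like signal that change was 0.19. The difference between these probes was 2.02, 2.81 and 2.88 against 2.68, 3.33, 3.03, 2.84 and 3.09, which overlap (two-sided exact permutation test, p = 0.179, and 0.179 adjusted over the 2 genes).

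**Figure D3:**
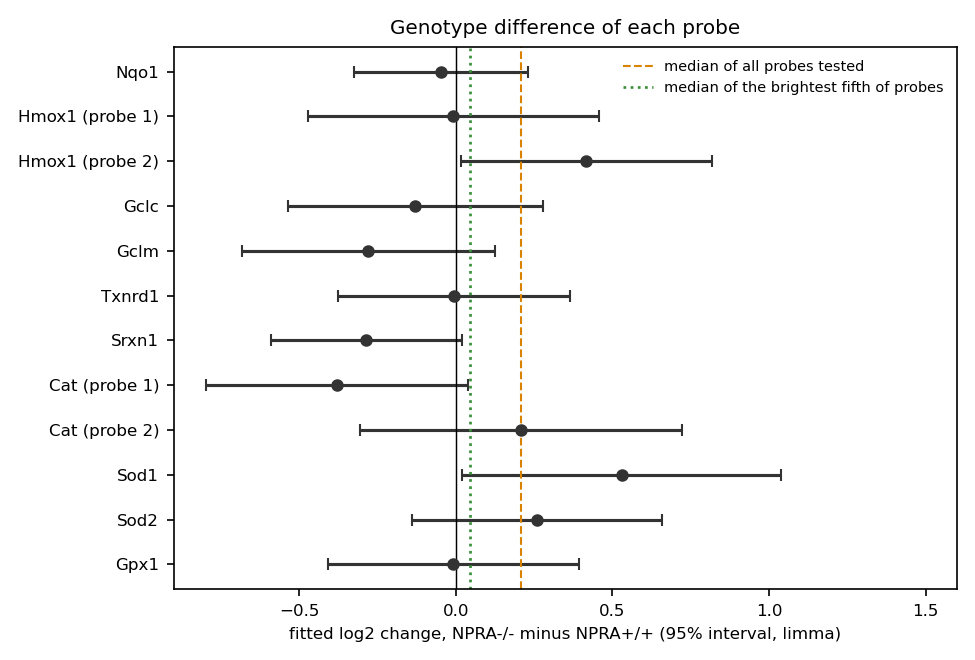
Fitted log2 change of each probe, NPRA-/- minus NPRA+/+ (x axis), with its 95% interval from limma. Dashed and dotted lines are the median changes of all probes (0.21) and of the brightest of 5 equal groups by signal (0.05), and the intervals of Sod1 and the dimmer Hmox1 probe alone exclude 0, before adjustment.

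Set against the median change of all probes under the same setting, Cat, Gclm, Srxn1, Nqo1, Hmox1, Txnrd1 and Gpx1 stayed below it in each of the 24 alternatives run on their representative probes. Gclc did so in all but 1 of them (0.02). Sod1 and Sod2 lay above it as reported and below it at their lowest (-0.13 and -0.07). Cat ranged from -0.82 to -0.41, Srxn1 from -0.68 to -0.17 and Gclm from -0.63 to -0.14. The alternatives share the same 8 arrays, so these ranges are no independent support. The median of all probes was also raised by dim probes. All representative probes lay in the 2 brightest of 5 equal groups by signal, each with a shift of 0.05. Against the shift of their own group, Txnrd1 and Gpx1 were at -0.05, Hmox1 at -0.06, Nqo1 at -0.10 and Gclc at -0.18. Srxn1 and Gclm were at -0.33, Cat at -0.43, Sod2 at 0.21 and Sod1 at 0.48. For genes near 0, lying below all probes is thus no sign of a decrease.

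**Figure D4:**
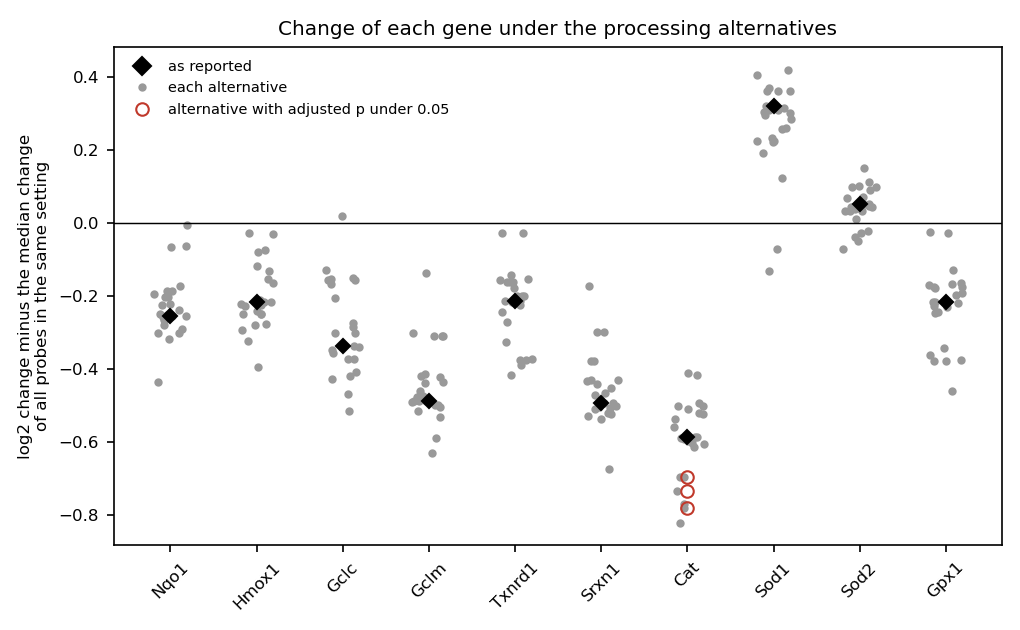
Log2 change of each gene's representative probe minus the median change of all probes in the same setting (y axis), as reported (diamonds) and under each of the 24 processing alternatives with that probe (grey points). Red rings mark an adjusted p under 0.05, reached by Cat alone, in 3 alternatives. All these probes are in the 2 brightest of 5 equal groups by signal, where the median change as reported was 0.05, against 0.21 over all probes.

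The rest of the pathway was read from 7 lists, 94 of whose 96 genes were measured. None (0) passed in either direction (limma). At an unadjusted p under 0.05, Ncf4 and Ccs (2 of 94) were higher and 0 were lower, against 16.2% and 1.24% of all genes. The regulators of NRF2 had a median fitted change of 0.07 over 10 genes, against 0.16 over all genes. Nfe2l2 and Keap1, given outside the rule for named genes, had fitted changes of 0.07 ± 0.13 and 0.05 ± 0.13. The small MAF gene Maff was at 0.28 ± 0.17 and Rbx1, the RING subunit of the KEAP1 ubiquitin ligase, at 0.06 ± 0.13. Nfe2l1, an endoplasmic reticulum relative of NRF2, was at 0.75 ± 0.43, almost wholly through NPRA-/- replicate 1 (level -1.42, against -3.43 and -3.41 on the other NPRA-/- arrays).

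Other NRF2 targets (16 genes) had a median of 0.02, with Cbr3, a carbonyl reductase, at 0.22 ± 0.14 and the ferritin heavy chain Fth1 at 0.67 ± 0.38. Glutathione genes (19) had a median of -0.02. Among them Ggct, a gamma-glutamylcyclotransferase, was at -0.44 ± 0.20 and the mitochondrial glutaredoxin Glrx2 at 0.79 ± 0.63. Thioredoxin and peroxiredoxin genes (17) had a median of 0.02, with Txnip, which binds and inhibits thioredoxin, at -0.32 ± 0.18, the sestrin Sesn1 at 0.49 ± 0.27 and the mitochondrial thioredoxin Txn2 at 0.20 ± 0.17. The medians of these lists, as that of the 10 genes, were below the median of all genes. Signal bears on this, as the shift was 0.63 in the dimmest of the 5 groups of probes and 0.05 in the 2 brightest. The lists were not compared with genes of like signal.

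NADPH is the reducing power that thioredoxin reductase and glutathione reductase use. Its 9 measured genes had a median of 0.12, with the transketolase Tkt at 0.25 ± 0.14 and the mitochondrial isocitrate dehydrogenase Idh2 at 0.65 ± 0.41. Sources of superoxide and hydrogen peroxide (11 measured) had a median of 0.28, the highest of the 7 lists. Ncf4, a subunit of the phagocyte NADPH oxidase, was at 0.54 ± 0.20, Nox1 at 1.03 ± 0.46 and the monoamine oxidase Maob at 0.14 ± 0.17. Nox1 is dim, in the range where the shift of all probes is largest. Other antioxidant and partner enzymes (12) had a median of 0.10, with the uncoupling protein Ucp2 at 0.25 ± 0.14 and the metallothionein Mt1 at 0.40 ± 0.35, low on NPRA+/+ replicate 5 alone (3.84, against 5.19 to 5.35 on the other NPRA+/+ arrays).

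Within scan day 1, 4 of the pathway genes passed, all higher: Ccs, Fth1 at 0.42 ± 0.09, Ncf4 at 0.53 ± 0.11 and Nox1 at 0.65 ± 0.12 (limma, adjusted p from 0.0402 to 0.0484), where 15.6% of all probes passed higher. Without NPRA+/+ replicate 1 the glutathione transferase Mgst3 passed lower, at -0.58 ± 0.14 (adjusted p = 0.0412), where 0.529% of all probes passed lower and 11% higher. Fth1, Idh2 and Glrx2 were each highest on replicate 1 within both genotypes, as was the cardiomyocyte marker sum.

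**Figure D5:**
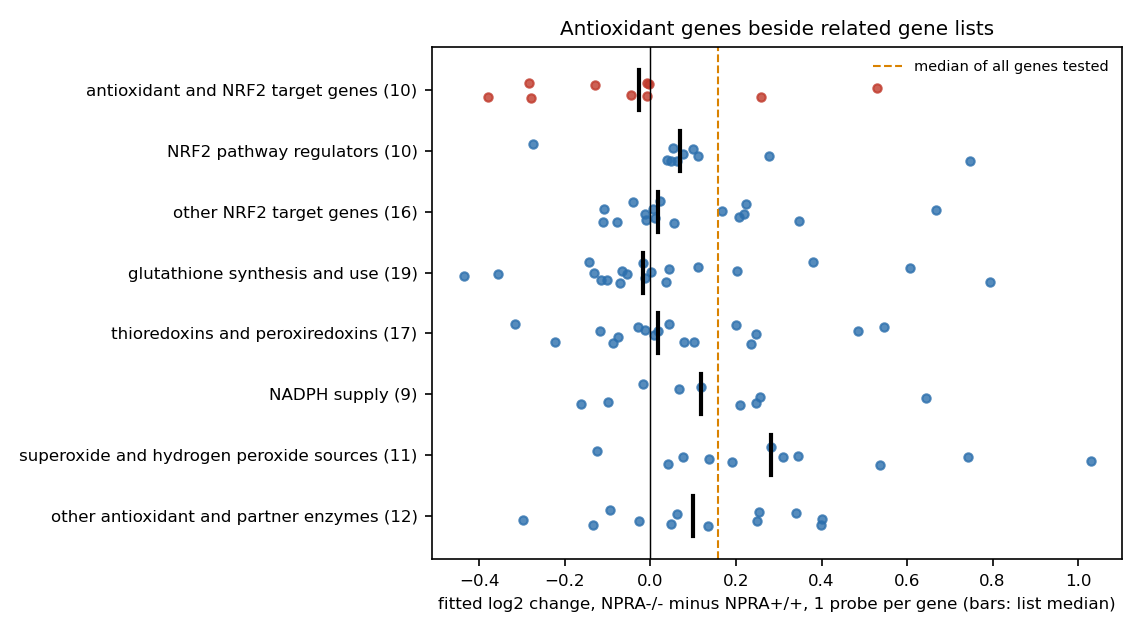
Fitted log2 change (x axis) of the 10 antioxidant genes and of the genes of 7 related lists, each by its representative probe, with list medians as bars and the median of all genes (0.16) dashed. The 10 genes spread from -0.38 to 0.53 around a median of -0.03.

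Summed signals of markers of some other cell types did not overlap between the genotypes, which cannot be told apart from scan time. In bulk tissue, fewer cells of a type and less RNA per cell cannot be told apart. The summed signal of 7 mesothelial markers was 1.24 to 1.81 on the NPRA-/- arrays against 0.691 to 1.02, that of 7 fibroblast markers 104 to 134 against 91.0 to 96.5, and these did not overlap. Among single genes 13% separated in this direction, and no such share was computed for sums. Of the mesothelial genes 3 of 7 were above background on every array and 1 of 7 passed (Msln, fitted change 2.48 ± 0.36, adjusted p = 0.0498). Msln did not pass with replicate number, scan day or slide as a block (limma, adjusted p from 0.0648 to 0.451). Nor did it with quantile normalization (adjusted p = 0.337) or scaling to the median (adjusted p = 0.145). Of the fibroblast genes 0 of 7 passed (2 at an unadjusted p under 0.05). Col1a1 was at 0.33 ± 0.14 and Dcn, the brightest and largest part of the sum, at 0.41 ± 0.16. The fitted change was above 0 for 4 of the 7 fibroblast genes and below 0 for 3, the lowest being Pdgfra at -0.23 ± 0.22. Macrophage markers, of a cell type rich in heme oxygenase 1, summed to 14.5 to 17.0 against 12.2 to 14.8 (7 genes, 0 passed in limma, 0 at an unadjusted p under 0.05). Erythroid markers, of cells rich in catalase, summed to 119 to 246 against 81.1 to 162 (7 genes, 0 passed, 1 at an unadjusted p under 0.05). The neutrophil sum, 38.3 to 46.1 against 32.2 to 44.7, overlapped and rests mostly on Csf3r, with a fitted change of 0.13 ± 0.15. All 6 neutrophil markers had a fitted change above 0, but only 28.1% of all genes had one below 0. S100a9 (1.04 ± 0.20, adjusted p = 0.069) and S100a8 (1.06 ± 0.26, adjusted p = 0.094, named after its values were seen) did not overlap between genotypes. In that direction 13% of all genes separated. After quantile normalization Csf3r, Cxcr2 and Retnlg were below 0 (-0.14, -0.43 and -0.16). S100a8, S100a9 and Camp stayed above it (0.85, 0.96 and 0.099). The part of neutrophils in the value of Ncf4 was not tested. Endothelial (7 genes) and lymphocyte (7) sums overlapped. In limma 0 genes of these 3 lists passed, and 4 were higher at an unadjusted p under 0.05, which 16.2% of all genes were. The part of these cell types in the levels of the 10 genes was not tested.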

How the data were processed

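Per the file headers, the deposited scanner files hold linear intensity values from Agilent Feature Extraction, version 11.0.1.1 in the submitters' processing notes, background-subtracted within an array, with flags of 0 or 1 per spot. In the deposited series table the values are log2, with a scaling that is not given but the same median of 7.05 in every column.

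Control spots were left out, spots marked as outliers set to missing, and spots of a probe averaged as log2. Each array's 75th percentile was subtracted. Probes well above background on at least 3 of 8 arrays were tested with limma 3.58.1 in R 4.3.3 (lmFit, eBayes, two-sided, Benjamini-Hochberg, threshold 0.05), with genotype as the only term. The code was tested on simulated data. No spot was saturated (0). RefSeq (GRCm38.p6) named 27234 of 39429 probes; the array design names another build, so gene coordinates are not given. The brightest probe stands for a gene. SEs and adjusted p-values are limma's throughout.

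The members and lists were chosen with earlier results of these data known. Named genes are all members, of each pathway list the 2 of smallest p and the brightest, and of each cell type list the 2 brightest and any past the threshold. The text gives these for the lists that bear on the members. Labels call the samples biological repetitions without naming animals. The p-values thus reflect only the spread among these samples, which may be technical, and precision is limited by the number of arrays. Equally numbered samples deviated together across probes, with correlations of 0.63, 0.28 and 0.36 by repetition number and 0.35, 0.12 and 0.30 by source name number, but unequally numbered ones also did (0.33 for NPRA-/- replicate 3 and NPRA+/+ replicate 2). Alternatives were other scalings, normexp (offset 50, on median spot signals), the series table, filters, blocks, variance models, weights and left-out arrays. Of 25, 3 were added after the data were seen: outlier spots kept, replicate 1 of both genotypes left out, and quantile normalization within scan day 1.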

Additional observations from a re-analysis of the deposited data

Results flagged for a closer look

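Gpx1 was singled out because 1 of the 5 NPRA+/+ arrays lay far from the others. Replicate 1 was at 2.01, against 2.52 to 2.66 on the other NPRA+/+ arrays, a gap of 0.789 of the whole range where Dixon's critical value for 5 samples is 0.71. By chance about 1 in 20 such groups passes this value, and 12 probes were examined. Without that array the fitted change of Gpx1 was -0.12 (limma, adjusted p = 0.486).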

How the results depend on the processing

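The count of all probes passing was 123. It was 0 with quantile normalization, scaling to the median, normexp, the deposited table, eBayes with trend, slide as a random block, scan day as a block and the replicate block by repetition number, 22 with the replicate block by source name number, 3 with probes above background on all 8 arrays, 193 without a filter, 5979 within scan day 1, 9557 with array weights and 4134 without replicate 1 of both genotypes. Leaving out 1 array gave 0 to 4088, the latter without NPRA+/+ replicate 1. With outlier-flagged spots kept, 37 probes passed higher and 5 lower. On the scan day 1 arrays after quantile normalization of all 8 arrays, 0 passed higher and 0 lower, so the passes within that day depended on the scaling. The count of member genes passing was 0 except for 1, Cat, within scan day 1, with array weights and without replicate 1 of both genotypes. Of the pathway genes, 4 passed within scan day 1 and 11 with array weights (8 higher, 3 lower); leaving out 1 array gave 0 to 1. With the replicate number as a block Cat was at -0.34 by either numbering, and the block changed no call among the members. Averaging both of its probes put Cat at -0.09 ± 0.20.

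Some signs changed. Sod2 was at -0.040 with quantile normalization and -0.043 in the deposited table, and Sod1 at -0.13 in the latter. With slide as a random block Txnrd1 was at 0.071 and Gpx1 at 0.049, and with the replicate block by repetition number at 0.019 and 0.051; by source name number Txnrd1 was at 0.024. Gclc was at 0.017 with scan day as a block or alone and at 0.033 without replicate 1 of both genotypes, where Hmox1 was at 0.083. With the mean of its probes Hmox1 was at 0.20. Leaving out 1 array, Nqo1 ranged from -0.10 to 0.014, Hmox1 from -0.12 to 0.11, Gclc from -0.24 to 0.058, Txnrd1 from -0.14 to 0.063 and Gpx1 from -0.12 to 0.048. None of these passed, and their causes were not tested. With 3 and 5 arrays the 95% intervals of the members were between 0.55 and 1.03 wide on the log2 scale.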
